A study of Mus musculus with 8 samples.

Results

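The genes described here are 36 genes of the ATF4 amino acid response and of tRNA charging, picked by symbol from the 55226 genes of the deposited expression table. They are 20 cytosolic aminoacyl-tRNA synthetase genes, 9 genes of the ATF4 axis and 7 genes of serine and one-carbon synthesis. The rule that names them uses no measured value, but they and the further gene lists below were chosen with earlier results of these data known. All 36 symbols were found, the synthetases under their older symbols, and 35 passed the filter of a mean rlog of 3 or more and were tested. The remaining one, Vldlr, a lipoprotein receptor gene, had rlog values between 0.61 and 0.88 in the 8 samples. The rlog is a log2 expression value that is shrunken for genes with few reads, so differences of low genes are understated.

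The samples were bone marrow-derived macrophages, cells that grow out of marrow in the presence of the growth factor M-CSF, here given at 10 ng/ml with 10% serum for 7 days. Per the labels, the mice were of the C57BL/6 strain with the genotype PtipcKO (cKO below) or PtipWT (WT below), a conditional knockout of PTIP, the protein of Paxip1, and its control. LPS, a bacterial cell wall component, was given at 100 ng/ml for 6 h or not at all (0 h, or unstimulated). The 4 groups, cKO with LPS, WT with LPS, cKO at 0 h and WT at 0 h, held 2 samples each. The sources used here do not name the Cre driver, the deleted exons or the number of mice behind a sample. The series calls the samples of a group biological replicates, without saying whether they came from separate mice or cultures, so p-values reflect only how far these samples differ.

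Aminoacyl-tRNA synthetases attach amino acids to their tRNAs, the step that feeds the ribosome. When an amino acid runs short, uncharged tRNA activates the kinase GCN2 (Eif2ak4), which phosphorylates the initiation factor eIF2, and translation of the transcription factor ATF4 then rises while most translation falls. ATF4 pairs with C/EBP proteins such as that of Cebpg on a composite DNA element, CARE, and switches on amino acid synthesis, transport and tRNA charging genes, among them Asns, Psat1, Phgdh, Mthfd2, Chac1 and Trib3. Because ATF4 is controlled mainly at translation, the level of its mRNA need not follow its activity.

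The CARE core TGATGNAA was searched on both strands of the RefSeq promoter windows (GRCm38.p6), each 250 bases before and 50 bases after an annotated start. An entry was found for 29 of the 36 genes, and 9 of these 29 (31%) held the core, against 4.51% of the 27025 genes with such a window. The genes without an entry were Cars, Hars, Lars, Nars, Rars, Vars and Wars. A match is a run of letters and not a measured binding site. Distances below are to the start of the window that held the match. For Vldlr that start lies inside the gene, which begins at 27216484 (GENCODE M21). The Vldlr window at chr19:27216234-27216533 held 0 matches. Windows of 30 bases around the match are shown for 8 of these 9 genes, because those of them that were tested recur in the differences between samples described further on. Each is written 5′ to 3′ on the strand that reads TGATGNAA, with the core in capitals.
Asns (chr6:7693214-7693243, minus strand, 23 bases before the start): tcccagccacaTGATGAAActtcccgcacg
Chac1 (chr2:119351038-119351067, minus strand, 193 bases before the start): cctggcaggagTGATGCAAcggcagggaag
Trib3 (chr2:152344028-152344057, plus strand, 14 bases after the start): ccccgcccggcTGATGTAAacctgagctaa
Gars (chr6:55037960-55037989, minus strand, 30 bases before the start): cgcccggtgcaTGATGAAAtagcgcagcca
Iars (chr13:49682126-49682155, minus strand, 7 bases after the start): gcgtctggaggTGATGCAAtactgacagtg
Tars (chr15:11399655-11399684, plus strand, 15 bases before the start): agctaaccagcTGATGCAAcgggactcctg
Vldlr (chr19:27216809-27216838, minus strand, 200 bases before the start): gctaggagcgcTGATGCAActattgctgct
Yars (chr4:129189895-129189924, plus strand, 3 bases after the start): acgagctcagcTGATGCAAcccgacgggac
The 250 bases before the Asns start (chr6:7693210-7693459, minus strand) and the Chac1 start (chr2:119350992-119351241, plus strand) are given in full as longer context for the pair of ATF4 axis genes with the largest gap between the cKO LPS samples, with the core in capitals on whichever strand it lies.
Asns: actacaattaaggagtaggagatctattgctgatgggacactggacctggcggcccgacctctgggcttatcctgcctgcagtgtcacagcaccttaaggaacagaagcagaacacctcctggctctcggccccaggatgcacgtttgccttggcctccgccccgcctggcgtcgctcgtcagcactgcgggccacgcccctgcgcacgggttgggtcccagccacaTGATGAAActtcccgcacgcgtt
Chac1: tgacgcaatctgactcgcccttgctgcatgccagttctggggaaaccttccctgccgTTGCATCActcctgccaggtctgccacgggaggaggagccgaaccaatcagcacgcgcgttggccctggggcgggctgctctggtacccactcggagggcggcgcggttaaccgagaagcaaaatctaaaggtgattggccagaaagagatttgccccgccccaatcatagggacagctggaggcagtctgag
A core of the interferon-stimulated response element, searched on either strand, was found for 2 of the 29 genes (6.9%), Qars and Vldlr, against 3.99% of all genes with a window.

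Paxip1 had an rlog of 2.54 and 2.63 in cKO with LPS, 3.82 and 4.08 in WT with LPS, 2.54 and 2.48 in unstimulated cKO, and 4.50 and 4.50 in unstimulated WT, so every cKO library lay below every WT library. The 6 macrophage markers were abundant in each sample, with a mean rlog of 12.68 to 13.6. Markers of T cells and erythroid cells were at or below a mean rlog of -0.87 in each sample. The 4 dendritic cell markers had sample means from 2.1 to 3.46, and 2 of them reached a mean rlog of 3. For the 5 fibroblast and stroma markers the sample means ran from -0.6 to -0.02. Among these, Dcn had 1.97 and 3.97 in cKO with LPS. Neutrophil, B cell, and mast cell and basophil markers are given further on. Depth could not be read from transformed values.

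After LPS, the synthetase genes did not move as a block in either genotype. In cKO macrophages 5 of the 20 rose and 1 fell, and in WT macrophages 3 rose and 3 fell. Over all 35 tested members 8 rose (22.9%) and 2 fell (5.71%) in cKO, where 37% of the 11543 tested genes were called, 19.6% rising and 17.5% falling. In WT 4 members rose (11.4%) and 5 fell (14.3%), where 42.2% of tested genes were called, 22.5% rising and 19.7% falling. The share that rose in cKO was close to that of all genes, and the other 3 shares were lower than theirs; these counts carry no test. The median member differed by 0.22 in cKO and 0.10 in WT, against -0.02 and -0.01 over all tested genes. The authors' deposited table called 13 of the 35 in cKO and 10 in WT, against 27.4% and 28.2% of the tested genes. Its additions were Aars, Cars and Chac1 in cKO, and Cars and Mthfd2 in WT. It did not call Dars in WT (log2 fold change -0.45, adjusted p = 0.246), which limma called.

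**Figure D1:**
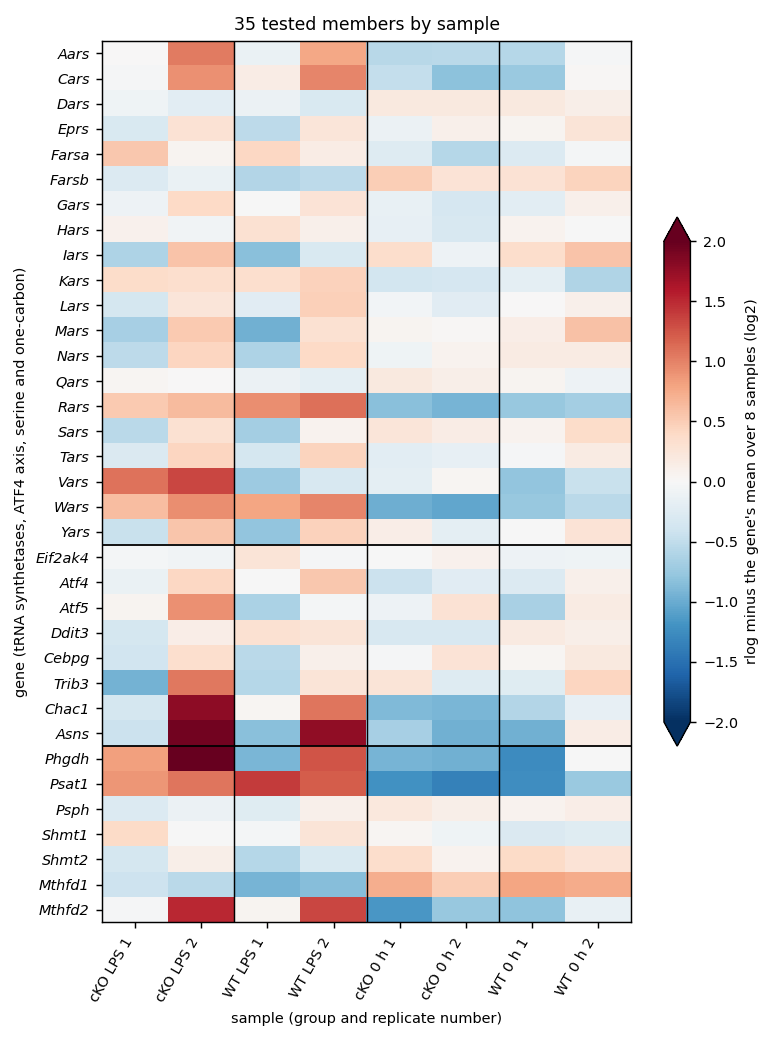
Each row is 1 of the 35 tested genes and each column 1 sample, coloured by its rlog minus the gene's mean over the 8 samples (log2); horizontal lines part synthetases, ATF4 axis and serine and one-carbon genes. Wars, Rars and Psat1 are high in all 4 LPS samples, Vars is highest in the 2 cKO LPS samples, and Asns, Chac1, Mthfd2 and Phgdh are highest in replicate 2 of cKO with LPS.

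Wars, the tryptophanyl-tRNA synthetase, known as an interferon-induced gene, had the largest rise of the synthetases in cKO, and Rars in WT. Its rlog was 10.27 and 10.58 in cKO with LPS, 10.44 and 10.62 in WT with LPS, 8.68 and 8.62 in unstimulated cKO, and 8.89 and 9.11 in unstimulated WT. The LPS samples lay above the 0 h samples without overlap, by 1.78 in cKO (SE 0.15, adjusted p = 7.14e-05) and 1.53 in WT (SE 0.15, adjusted p = 9.93e-05). Rars, the arginyl-tRNA synthetase and a part of the multisynthetase complex, also rose in both genotypes. It stood at 10.80 and 10.92 in cKO with LPS, 11.21 and 11.38 in WT with LPS, 9.45 and 9.35 in unstimulated cKO, and 9.52 and 9.61 in unstimulated WT. LPS raised Rars by 1.46 in cKO (SE 0.12, adjusted p = 7.12e-05) and by 1.74 in WT (SE 0.12, adjusted p = 2.36e-05).

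Kars, the lysyl-tRNA synthetase, rose by 0.70 in cKO (SE 0.15, adjusted p = 0.00677) and 0.79 in WT (SE 0.15, adjusted p = 0.00316). The subunits of the phenylalanyl-tRNA synthetase, which work as a pair, went opposite ways in cKO. Farsb, the beta subunit, fell by 0.58 in cKO (adjusted p = 0.0101) and by 0.93 in WT (adjusted p = 0.0008). Farsa, the alpha subunit, rose by 0.72 in cKO (SE 0.20, adjusted p = 0.0214) and differed by 0.44 in WT (adjusted p = 0.108). Both cKO calls rested on single libraries: without cKO LPS replicate 1 the adjusted p was 0.148 for Farsa and 0.0742 for Farsb, without cKO 0 h replicate 2 it was 0.117 for Farsa, and without cKO 0 h replicate 1 it was 0.0693 for Farsb.

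Iars, the isoleucyl-tRNA synthetase, had 6.77 and 7.96 in cKO with LPS, 6.56 and 7.09 in WT with LPS, 7.74 and 7.30 in unstimulated cKO, and 7.74 and 7.96 in unstimulated WT. It fell by 1.03 in WT (SE 0.36, adjusted p = 0.049) and differed by -0.15 in cKO (adjusted p = 0.776), where the groups overlapped. Dars, for aspartate, fell by 0.37 in WT (adjusted p = 0.0417) and differed by -0.34 in cKO (adjusted p = 0.0591). These calls in WT were marginal: leaving out any 1 of the 4 WT libraries ended that of Iars (adjusted p 0.052 to 0.213), as did leaving out either cKO 0 h library (adjusted p = 0.0533 and 0.0529). That of Dars ended without any 1 of the 8 libraries other than WT LPS replicate 1 (adjusted p 0.0587 to 0.173). Among the synthetases not called in either genotype, Aars (alanine) and Cars (cysteine) had differences of 1.08 and 1.09 in cKO and 0.63 and 0.92 in WT. Without cKO LPS replicate 1 both passed in cKO, Aars at 1.60 (adjusted p = 0.0208) and Cars at 1.57 (adjusted p = 0.0298), and without WT LPS replicate 1 Cars passed in WT at 1.33 (adjusted p = 0.042). Leaving out 1 library of the other genotype also brought the cKO values under the threshold, for Aars with either WT LPS library (adjusted p = 0.032) and for Cars with any of the 4 WT libraries (adjusted p 0.0385 to 0.0493); Dars passed in cKO without either WT LPS library (adjusted p = 0.0488 and 0.0486). The synthetases for glutamate and proline (Eprs), glycine (Gars), histidine (Hars), leucine (Lars), methionine (Mars), asparagine (Nars), glutamine (Qars), serine (Sars), threonine (Tars) and tyrosine (Yars) ranged from -0.31 for Sars to 0.39 for Gars in cKO, and from -0.69 for Mars to 0.19 for Gars in WT. Without WT LPS replicate 2 the WT difference of Mars was -1.32 (adjusted p = 0.0442).

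**Figure D2:**
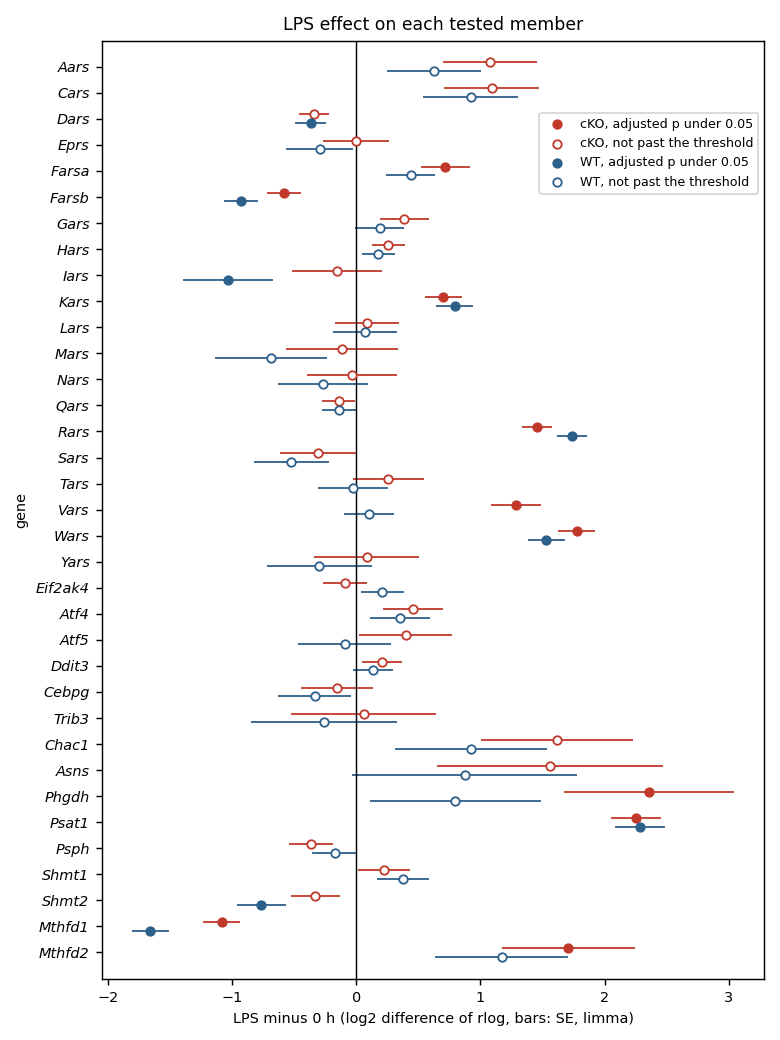
The LPS effect on each tested gene (LPS minus 0 h, log2 difference of rlog) in cKO (red) and WT (blue), with its SE from limma; filled points passed an adjusted p of 0.05. Wars, Rars, Kars and Psat1 are filled to the right of 0 in both genotypes, Farsb and Mthfd1 to the left in both, and the bars of Asns, Phgdh and Chac1 are the longest.

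Of the ATF4 axis, 0 of 8 tested genes passed the threshold after LPS in either genotype with limma. An unadjusted p under 0.05 was found for 1 in cKO and 0 in WT, against 5396 and 5830 of the 11543 tested genes. With the replicate number added to the limma model as a block, Atf4 and Chac1 passed in cKO (adjusted p = 0.0264 and 0.0221). Without a block, the transcript of ATF4 itself differed by 0.46 in cKO (SE 0.24, adjusted p = 0.174) and 0.35 in WT (adjusted p = 0.274). Ddit3, encoding the stress factor CHOP, differed by 0.21 and 0.13, and its partner Cebpg by -0.15 and -0.33, in cKO and WT. Eif2ak4 differed by -0.09 in cKO and 0.21 in WT, Atf5, a relative of Atf4, by 0.40 and -0.09, and Trib3, a pseudokinase gene that restrains ATF4 signalling, by 0.06 and -0.26. Atf5 overlaps Nup62 by 571 bases on the opposite strand, and Nup62 was far higher, at rlog 8.68 to 9.90, so without a known strand setting their reads cannot be told apart. The estimates were larger and their errors wide for Chac1, which degrades glutathione, at 1.62 in cKO (SE 0.61, adjusted p = 0.0693) and 0.93 in WT (adjusted p = 0.256), and for Asns, the asparagine synthetase, at 1.56 in cKO (SE 0.91, adjusted p = 0.215) and 0.87 in WT (adjusted p = 0.473). In the authors' deposited table the cKO log2 fold change of Chac1 was 4.0 (adjusted p = 0.000878). Without cKO LPS replicate 1, Chac1 rose by 2.68 in cKO (adjusted p = 0.00494).

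The serine and one-carbon genes split by step. Serine synthesis from glycolysis runs through Phgdh, Psat1 and Psph in that order. Psat1, the aminotransferase in the middle, had 7.28 and 7.47 in cKO with LPS, 7.79 and 7.61 in WT with LPS, 5.19 and 5.05 in unstimulated cKO, and 5.16 and 5.67 in unstimulated WT. The LPS samples lay clear of the others, and the rise was 2.26 in cKO (SE 0.20, adjusted p = 1e-04) and 2.29 in WT (SE 0.20, adjusted p = 6.5e-05). Psph, which removes the phosphate in the last step, differed by -0.36 in cKO (adjusted p = 0.148) and -0.17 in WT (adjusted p = 0.475).

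Phgdh, the dehydrogenase that commits 3-phosphoglycerate to serine, was at 8.87 and 10.06 in cKO with LPS, 7.14 and 9.31 in WT with LPS, 7.13 and 7.09 in unstimulated cKO, and 6.81 and 8.05 in unstimulated WT. LPS and 0 h did not overlap in cKO, where Phgdh rose by 2.36 (SE 0.69, adjusted p = 0.027), and overlapped in WT, where it differed by 0.80 (adjusted p = 0.383). The cKO call ended without cKO LPS replicate 2 (1.76, adjusted p = 0.173), cKO 0 h replicate 1 (adjusted p = 0.0834) or cKO 0 h replicate 2 (adjusted p = 0.085), and without WT LPS replicate 1 the WT difference was 1.89 (adjusted p = 0.0347). The difference between the genotypes in the LPS response of Phgdh was 1.56 (SE 0.97, adjusted p = 0.799).

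Mthfd2, the mitochondrial folate enzyme, had 9.40 and 10.93 in cKO with LPS, 9.47 and 10.76 in WT with LPS, 8.25 and 8.66 in unstimulated cKO, and 8.61 and 9.27 in unstimulated WT. In each genotype both LPS samples were above both 0 h samples. It rose by 1.71 in cKO (SE 0.54, adjusted p = 0.0361) and differed by 1.17 in WT (SE 0.54, adjusted p = 0.112). Without cKO LPS replicate 2 the cKO difference was 0.94 (adjusted p = 0.231), without either cKO 0 h library the call also ended (adjusted p = 0.14 and 0.0702), and without WT LPS replicate 1 the WT difference was 1.82 (adjusted p = 0.0392).

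Mthfd1, the cytosolic counterpart with 3 folate activities, moved the other way. Its rlog was 6.90 and 6.76 in cKO with LPS, 6.37 and 6.46 in WT with LPS, 8.03 and 7.80 in unstimulated cKO, and 8.10 and 8.05 in unstimulated WT. It fell by 1.08 in cKO (SE 0.15, adjusted p = 0.000731) and by 1.66 in WT (SE 0.15, adjusted p = 6.45e-05), with the LPS samples below the others in each genotype. Shmt2, the mitochondrial serine hydroxymethyltransferase, fell by 0.76 in WT (adjusted p = 0.0136) and differed by -0.33 in cKO (adjusted p = 0.223). The WT call of Shmt2 ended without WT 0 h replicate 1 (adjusted p = 0.0709) or WT LPS replicate 1 (adjusted p = 0.0715). Shmt1, its cytosolic relative and a low gene with a mean rlog of 3.095, differed by 0.22 in cKO and 0.38 in WT, with 0 calls.

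**Figure D3:**
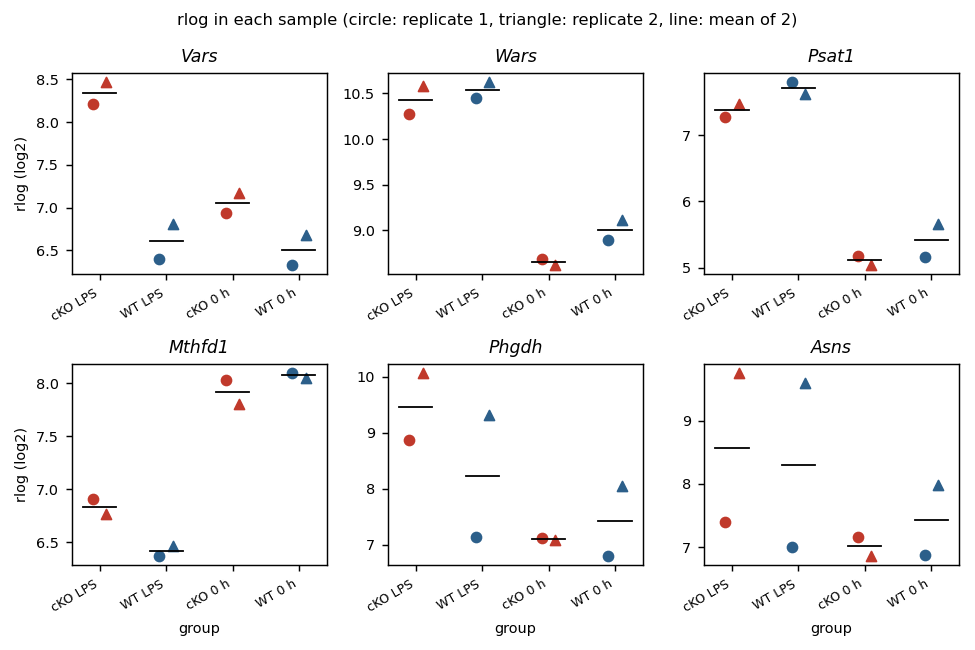
The rlog of 6 genes in each of the 8 samples, by group; circles are replicate 1, triangles replicate 2, and the line is the mean of the 2, and each panel has its own log2 scale. Vars is set apart in cKO with LPS at 8.21 and 8.46, Wars and Psat1 are high and Mthfd1 low after LPS, and Phgdh and Asns show the gap between the samples of a group.

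The 2 samples of a group differed more for these genes than for most genes, in 3 of the 4 groups. Replicate 2 exceeded replicate 1 in 27 of 35 members in cKO with LPS (77.1%), 28 in WT with LPS (80%), 13 in cKO at 0 h (37.1%) and 28 in WT at 0 h (80%), against 49%, 47.5%, 50.1% and 49.2% of all tested genes. The gap was over 1 on the log2 scale in 9 members in cKO with LPS (25.7%), 7 in WT with LPS (20%), 0 in cKO at 0 h and 2 in WT at 0 h (5.71%). For all tested genes these shares were 0.84%, 2.45%, 2.08% and 1.74%. The labels do not say what a replicate number stands for, and these counts carry no test.

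Asns had 7.40 and 9.75 in cKO with LPS, 7.00 and 9.60 in WT with LPS, 7.17 and 6.87 in unstimulated cKO, and 6.87 and 7.98 in unstimulated WT. Its gap of 2.36 in cKO with LPS ranked 3 among 11543 genes, and its gap of 2.60 in WT with LPS ranked 2. Chac1 had 3.56 and 5.70 in cKO with LPS, 3.95 and 4.98 in WT with LPS, 3.02 and 3.004 in unstimulated cKO, and 3.33 and 3.75 in unstimulated WT. Trib3 had 5.22 and 7.22 in cKO with LPS, 5.59 and 6.42 in WT with LPS, 6.41 and 5.90 in unstimulated cKO, and 5.92 and 6.59 in unstimulated WT. In all 3 genes the sample with the highest value was cKO with LPS replicate 2, while the other cKO LPS sample lay within the range of the 4 unstimulated samples for Asns and Chac1 and below it for Trib3. Atf4 itself had smaller gaps, 0.54 in cKO with LPS, 0.55 in WT with LPS, 0.20 in cKO at 0 h and 0.38 in WT at 0 h.

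Of the 20 synthetases 10 had a gap over 0.5 in both LPS groups: Mars (1.18 in cKO and 1.28 in WT), Yars (1.01 and 1.26), Aars (1.04 and 0.91), Nars (0.95 and 1.02), Cars (0.94 and 0.82), Sars (0.84 and 0.75), Tars (0.72 and 0.79), Lars (0.59 and 0.71), Eprs (0.58 and 0.77) and Iars (1.18 and 0.53). The other 10 lay under 0.5 in both: Gars (0.49 and 0.28), Wars (0.31 and 0.18), Vars (0.25 and 0.41), Farsb (0.14 and 0.07), Rars (0.12 and 0.17), Kars (-0.03 and 0.13), Qars (-0.03 and -0.08), Dars (-0.12 and -0.19), Hars (-0.15 and -0.20) and Farsa (-0.48 and -0.27). The 8 tested genes with the CARE core all had replicate 2 above replicate 1 in both LPS groups, with a median gap of 1.11 in cKO and 0.87 in WT. Of the 20 genes with a window and no core 11 did (55%), with medians of 0.33 and 0.28, and of the 7 without a promoter entry 6 did (85.7%), with medians of 0.31 and 0.41. Over all tested genes it was 26.7%. Asns, Chac1 and Yars, with the core, had gaps over 1 in both LPS groups. So did Mars, Mthfd2 and Phgdh, with no core in their windows. The comparison of genes with and without the core was chosen after the values were seen. The part of the core in the gap was not tested.

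In both LPS groups replicate 2 exceeded replicate 1 by more than 1 in 13 of 11543 genes (0.113%), of which 6 are described here: Asns, Chac1, Mars, Mthfd2, Phgdh and Yars. Of the other 7, 3 (Aldh18a1, Gpt2 and Slc7a1) stand on a list of further ATF4 targets. The list was drawn up from textbook knowledge, with earlier results of these data known. Aldh18a1, which starts proline synthesis, had gaps of 1.27 in cKO and 1.72 in WT. Gpt2, an alanine aminotransferase, had 1.27 and 1.41, and Slc7a1, a transporter of cationic amino acids, had 1.40 and 1.30. Of the 17 tested genes on that list, replicate 2 was higher in 11 in each LPS group (64.7%). The shares of all tested genes were 49% in cKO with LPS and 47.5% in WT with LPS. The median gap of the list was 0.41 in cKO with LPS and 0.05 in WT with LPS. Single gaps on the list ran from -0.93 to 1.40 in cKO with LPS and from -0.98 to 1.72 in WT with LPS. Neutrophil markers also moved with the replicate number: their mean rlog over 6 genes was 2.46 and 2.94 in cKO with LPS, 2.23 and 2.99 in WT with LPS, 2.07 and 2.29 in unstimulated cKO, and 1.87 and 2.30 in unstimulated WT. Of these 6 genes only S100a8 and Camp reached a mean rlog of 3, and Ly6g was below -1.9 in every sample. The 3 mast cell and basophil markers were likewise higher in replicate 2 in all 4 groups, with means from 2.51 to 3.65. The mean over 4 B cell markers was 0.68 and 1.08 in cKO with LPS, 0.83 and 0.83 in WT with LPS, 1.24 and 1.30 in unstimulated cKO, and 1.19 and 1.08 in unstimulated WT, so it did not move with the replicate number in every group. Dendritic cell markers were lower in replicate 2 with LPS, with means over 4 genes of 2.79 and 2.62 in cKO and 3.46 and 2.88 in WT. At 0 h these means were 2.1 and 2.43 in cKO, and 2.32 and 2.28 in WT. The part of such cells in the gap was not tested; at 0 h in cKO the neutrophil markers were higher in replicate 2 in 6 of 6 genes and the mast cell and basophil markers in 3 of 3, and the members in 13 of 35. In bulk RNA, fewer cells of a type and less RNA per cell cannot be told apart.

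**Figure D4:**
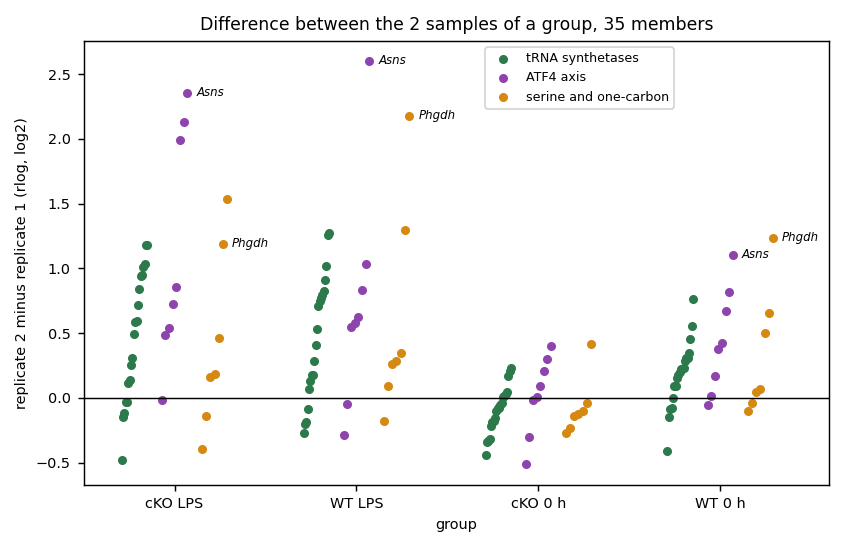
Replicate 2 minus replicate 1 (rlog, log2) within each group for the 35 tested genes, coloured by class, with Asns and Phgdh named where the gap is over 0.5. In both LPS groups and in WT at 0 h most points lie above 0, and in cKO at 0 h all lie between -0.51 and 0.41.

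Between the genotypes, Vars, the valyl-tRNA synthetase, was the 1 member that passed, after LPS. It had 8.21 and 8.46 in cKO with LPS, 6.40 and 6.81 in WT with LPS, 6.94 and 7.17 in unstimulated cKO, and 6.33 and 6.68 in unstimulated WT. Every cKO sample lay above the WT samples of its time, by 1.73 after LPS (SE 0.20, adjusted p = 0.0128) and 0.55 at 0 h (SE 0.20, adjusted p = 0.389). In the authors' deposited table the log2 fold changes were 2.07 after LPS (adjusted p = 7.41e-08) and 0.65 at 0 h (adjusted p = 0.843). LPS raised Vars by 1.29 in cKO (SE 0.20, adjusted p = 0.00161) and the difference in WT was 0.10 (adjusted p = 0.717); the difference between these responses, 1.18 (SE 0.29), had an adjusted p of 0.682. The cKO excess after LPS kept its direction and lost its call without WT LPS replicate 1 (1.53, adjusted p = 0.0642), cKO LPS replicate 1 (1.86, adjusted p = 0.0754) or cKO LPS replicate 2 (1.61, adjusted p = 0.139).

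Vars lies on chromosome 17 from 35000987 to 35016322 on the plus strand (GRCm38, GENCODE M21) and overlaps no other annotated gene. Its neighbour Lsm2, a splicing factor gene on the same strand, had 7.04 and 6.96 in cKO with LPS, 6.58 and 6.72 in WT with LPS, 7.36 and 7.24 in unstimulated cKO, and 7.15 and 7.09 in unstimulated WT, a difference of 0.35 after LPS. The other measured neighbours were below the filter: Hspa1l had a mean rlog of -0.19, Vwa7 of -1.59 and Msh5 of 2.15. These neighbours were looked at after the values of Vars were seen.

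After LPS 1 of 35 members (2.86%) was thus higher in cKO, where 1.51% of all tested genes were higher and 2.46% lower, and 0 were lower. The authors' deposited table also called Vars alone, against 5.59% of tested genes. With limma 5 of 35 members had an unadjusted p under 0.05, against 2483 of the 11543 tested genes. They were Vars and, short of the threshold, Rars (-0.44, adjusted p = 0.0808), Mthfd1 (0.42, adjusted p = 0.144), Farsb (0.35, adjusted p = 0.172) and Ddit3 (-0.39, adjusted p = 0.204). The differences of the 34 uncalled members ran from -0.44 for Rars to 1.24 for Phgdh (adjusted p = 0.336), and Asns (0.28, SE 0.91) and Phgdh (SE 0.69) were estimated least well.

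At 0 h 0 of 35 members were called with limma or in the authors' deposited table, where 0.251% and 1.52% of tested genes were. An unadjusted p under 0.05 with limma was found for 3 of 35 members, against 1256 of the 11543 tested genes. These were Ddit3 (-0.47, adjusted p = 0.34), Vars and Wars (-0.35, adjusted p = 0.449). The median member differed by -0.17, against -0.01 over all tested genes, and 10 of 35 differences were positive. After LPS the median was 0.09, against -0.03 over all tested genes, and 24 of 35 were positive. Signs were not counted over all tested genes at either time.

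The difference between the genotypes in the LPS response was called for 0 members and for 0% of the tested genes with limma; 2 members, Vars and Mthfd1 (0.57, SE 0.21, adjusted p = 0.707), and 751 of the 11543 genes had an unadjusted p under 0.05. The difference was positive in 28 of 35 members with a median of 0.24, against -0.02 over all tested genes. Signs were not counted over all tested genes, and members that move together are not separate counts. At 0 h replicate 2 exceeded replicate 1 in 28 of 35 members in WT and 13 in cKO. The part of that gap in the difference was not tested.

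Genes of the same pathways outside the 36 gave the following. Of 17 mitochondrial synthetase genes 3 fell in cKO after LPS, led by Nars2 (-0.90) and Fars2 (-0.58, a call that ended without any of the 4 cKO libraries, adjusted p 0.114 to 0.138), and 7 fell in WT, led by Nars2 (-1.71, adjusted p = 0.000118) and Cars2 (-1.10); 0 rose. These falls were 17.6% of the list in cKO, against 17.5% of all tested genes, and 41.2% in WT, against 19.7%. Nars2 was 0.82 higher in cKO than in WT after LPS (adjusted p = 0.0396), with 5.43 and 5.39 in cKO and 4.71 and 4.46 in WT, a call that ended whichever of these 4 libraries was left out (adjusted p 0.0949 to 0.22), and also without either WT 0 h library (adjusted p = 0.0597 and 0.0599). Of the 3 scaffold genes of the multisynthetase complex, Eef1e1 rose by 0.83 in cKO and 0.53 in WT, and Aimp2 fell by 0.77 in WT. The WT call of Eef1e1 ended without WT 0 h replicate 1, WT 0 h replicate 2 or WT LPS replicate 2 (adjusted p 0.0633 to 0.0996).

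Ppp1r15a, the GADD34 subunit that directs phosphatase to eIF2, rose by 1.56 in cKO and 1.12 in WT after LPS, and Ppp1r15b, its constitutive counterpart, by 1.53 and 2.09. Under quantile normalization the WT rise of Ppp1r15a was 0.41 (adjusted p = 0.0726). Of 15 tested genes of eIF2 control 3 rose and 2 fell in cKO, and 4 rose and 5 fell in WT; Impact, a GCN2 inhibitor gene, fell by 1.34 and by 1.57, and the kinase gene Eif2ak3 by 0.97 and by 1.17; the cKO call of Eif2ak3 ended without cKO LPS replicate 2 (adjusted p = 0.0528). The shares that rose and fell were 20% and 13.3% in cKO, against 19.6% and 17.5% of all tested genes, and 26.7% and 33.3% in WT, against 22.5% and 19.7%. Ppp1r15a was lower in cKO than in WT at both times, with calls that depended on the settings. Both calls ended with no variance trend (limma, adjusted p = 0.065 at 0 h and 0.059 after LPS). Both also ended with no filter on low values (limma, adjusted p = 0.0565 and 0.122). The 0 h call ended with only the 4 compared samples as well (limma, adjusted p = 0.123). The rlog of Ppp1r15a was 12.15 and 12.31 in cKO with LPS, and 13.01 and 12.96 in WT with LPS. Unstimulated, it was 10.67 and 10.65 in cKO, and 12.06 and 11.67 in WT. The difference was -0.76 after LPS (SE 0.15, adjusted p = 0.0355) and -1.20 at 0 h (SE 0.15, adjusted p = 0.0284). After LPS it moved to -0.40 under quantile normalization (adjusted p = 0.221), and leaving out any of the 4 libraries ended the call (adjusted p 0.0737 to 0.195). At 0 h the call ended without WT 0 h replicate 1 (adjusted p = 0.186), cKO 0 h replicate 2 (adjusted p = 0.161) or either cKO LPS library (adjusted p = 0.0951 and 0.0949).

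Of 17 tested further ATF4 targets 4 rose in cKO after LPS, led by the cystine transporter gene Slc7a11 (2.62) and the stress gene Nupr1 (1.21). In WT 5 rose, led by Slc7a11 (2.22) and Nupr1 (1.66), and 2 fell, the glutamine transporter gene Slc1a5 (-1.35) and the translation repressor gene Eif4ebp1 (-0.83). The call of Eif4ebp1 ended without WT LPS replicate 1 (-0.49, adjusted p = 0.256), either WT 0 h library (adjusted p = 0.146 and 0.137) or either cKO 0 h library (adjusted p = 0.0577 and 0.0575). The share that rose was 23.5% in cKO, against 19.6% of all tested genes, and 29.4% in WT, against 22.5%; the share that fell was 0% in cKO, against 17.5%, and 11.8% in WT, against 19.7%. Between genotypes 0 of 17 passed with limma at either time. An unadjusted p under 0.05 was found for 5 after LPS and 4 at 0 h, against 2483 and 1256 of the 11543 tested genes. The authors' deposited table called 1 and 2, against 5.59% and 1.52% of tested genes. Of 12 tested folate cycle and glycine genes 2 rose and 5 fell in cKO after LPS, and 3 rose and 5 fell in WT. The falls were 41.7% of this list in each genotype, against 17.5% of all tested genes in cKO and 19.7% in WT, and the rises 16.7% in cKO and 25% in WT, against 19.6% and 22.5%. Gcsh, of the glycine cleavage system, fell by 1.74 in cKO and by 2.03 in WT. Tyms, the thymidylate synthase gene, was lower in cKO than in WT after LPS (-0.72, SE 0.16, adjusted p = 0.0488), with 6.72 and 6.77 in cKO and 7.54 and 7.38 in WT; that call ended in each run without 1 of those 4 libraries (adjusted p 0.0795 to 0.242), and without either WT 0 h library (adjusted p = 0.0682 and 0.0684).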

How the data were processed

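RNA selected on oligo-dT beads was fragmented, copied with random primers and amplified, per the labels' protocols. Tools listed by the submitters' processing notes, without roles, are featureCounts, DESeq2, HISAT2 2.1.0 and CASAVA, with the build GRCm38. Strand setting and treatment of shared reads were not given there, so genes that overlap on opposite strands are uncertain: Mars with Ddit3 (68 bases), Atf5 with Nup62 (571), Wars with Wdr25 (544), Psph with Cct6a (452), Hars with Hars2 (198) and Shmt1 with Smcr8 (184). In GENCODE M21 2 genes carry the symbol Ddit3. The authors deposited log2 values after a regularised log transformation (rlog), and, per the file headers, log2 fold changes of their own comparisons with p-values, raw and adjusted. Depth is therefore unknown.

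The 11543 genes whose rlog averaged 3 or more were fitted with limma 3.58.1 in R 4.3.3, with 4 group means over 8 samples and a variance trend, after the script was tested on simulated data. Adjusted p is Benjamini-Hochberg over all tested genes, with a threshold of 0.05; SE is the model's. The members and lists were chosen with earlier results of these data known. Values in every sample are given for members called between genotypes, or called after LPS with a difference of at least 1, and, by choice after seeing values, for Asns, Chac1 and Trib3; in other lists up to 2 rises and 2 falls per comparison are named. Of the genes and sequences these choices select, 2 are not reported here. Promoters were to be printed for called members with a motif, which named Iars alone; the others were added after seeing values. Alternatives were 2 filters, 2 normalizations, no trend, only the compared samples, each sample left out, and 2 replicate blocks.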

Additional observations from a re-analysis of the deposited data

Results flagged for a closer look

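Groups of 2 samples are too small to test for a single outlying sample. For 2 members the direction of a difference was opposite in the compared groups, without overlap of samples in either. The genotype difference in the LPS response was not called in either case. Such cases were not counted over all tested genes, and groups of 2 samples often fail to overlap by chance. Eif2ak4 was lower after LPS in both cKO samples (5.45 and 5.43, against 5.48 and 5.57 at 0 h) and higher in both WT samples (5.75 and 5.47, against 5.39 and 5.40), and equally was lower in cKO than in WT after LPS and higher at 0 h; the genotype difference in its LPS response was -0.30 (limma, adjusted p = 0.852). Mthfd1 was higher in cKO than in WT after LPS, by 0.42, and lower at 0 h, with a difference of -0.16; the genotype difference in the LPS response was 0.57 (limma, adjusted p = 0.707).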

How the results depend on the processing

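The members called numbered 7 to 15 for LPS in cKO (10 as reported) and 6 to 12 for LPS in WT (9 as reported) over the alternatives, and 0 throughout for cKO against WT at 0 h and for the genotype difference in the LPS response. For cKO against WT after LPS the count was 1 in most, 0 to 1 when single libraries were left out, and 2 with the replicate block, which added Atf5 (0.83, adjusted p = 0.0493) to Vars. No called member changed direction in the alternatives run. Samples of the same number deviated together over all tested genes in 5 of 6 pairs of groups (r of deviations 0.077 to 0.311, and -0.042 between cKO and WT at 0 h). The largest r were within a genotype, 0.311 between the cKO groups and 0.222 between the WT groups. Over the 35 members r was 0.821 between the LPS groups, 0.741 between the WT groups and -0.049 between the cKO groups. The titles carry the same number at 0 h and after LPS but do not say what it stands for, so it was not taken as a pairing. The replicate block called 15 members for LPS in cKO and 11 in WT, and the block within genotype 14 and 12, where the additions under the first block were Aars (adjusted p = 0.0071), Cars (0.017), Chac1 (0.0221), Atf4 (0.0264) and Dars (0.0486) in cKO, and Mthfd2 (0.00699) and Cars (0.0294) in WT. The block within genotype added Aars (limma, adjusted p = 0.00719), Cars (0.0121), Chac1 (0.0228) and Atf4 (0.0303) in cKO. In WT it added Mthfd2 (0.00786), Cars (0.0214) and Farsa (0.0471). With no filter on low values the calls of Farsa (adjusted p = 0.0968), Phgdh (adjusted p = 0.154) and Mthfd2 (adjusted p = 0.183) in cKO and of Iars (adjusted p = 0.178), Dars (adjusted p = 0.0641) and Shmt2 (adjusted p = 0.053) in WT ended. That of Farsa in cKO also ended under quantile normalization (adjusted p = 0.0527), where Dars passed (adjusted p = 0.00914). In WT that of Iars ended with a minimum rlog of 5 (adjusted p = 0.0511), median centring (adjusted p = 0.0501) and no trend (adjusted p = 0.0589), and that of Dars with no trend (adjusted p = 0.0706) and with only the 4 compared samples (adjusted p = 0.101), where Aars (adjusted p = 0.036) and Cars (adjusted p = 0.0318) passed in cKO. Runs without 1 library leave a lone sample, assumed to vary like the other groups. Depth is unknown, so no limit from counts can be given.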

Other observations

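Genes of the chaperone arm of the endoplasmic reticulum stress response showed the gap between the LPS samples with the opposite sign. Of 14 tested genes replicate 2 exceeded replicate 1 in 3 in cKO with LPS (21.4%) and 0 in WT with LPS. The shares of all tested genes were 49% and 47.5%. Median gaps of the 14 genes were -0.22 and -0.38. At 0 h replicate 2 was higher in 11 in cKO (78.6%) and 13 in WT (92.9%), against 50.1% and 49.2% of all tested genes. Genes that move together are not separate counts. Hspa5, the chaperone BiP, had 14.45 and 14.17 in cKO with LPS, 15.11 and 14.50 in WT with LPS, 13.58 and 13.73 in unstimulated cKO, and 13.92 and 13.99 in unstimulated WT. LPS raised 2 and lowered 2 of these genes in cKO, and raised 2 and lowered 4 in WT. Those shares were 14.3% and 14.3% in cKO, against 19.6% and 17.5% of all tested genes, and 14.3% and 28.6% in WT, against 22.5% and 19.7%. Herpud1, which serves the removal of misfolded proteins, fell by 1.61 in cKO and by 1.91 in WT, while Edem1, of the same process, rose by 0.69 and 0.94. The rises of Hspa5, 0.66 in cKO and 0.85 in WT, were 0.19 and 0.17 under quantile normalization (adjusted p = 0.468 and 0.498), and the cKO call of Hspa5 ended without any 1 of the 8 libraries other than the WT LPS ones (adjusted p 0.0606 to 0.239), the WT call without WT 0 h replicate 1 (adjusted p = 0.064) or WT LPS replicate 1 (0.54, adjusted p = 0.0696).

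Besides the genes named above, those with a gap over 1 between the samples of both LPS groups were Ppbp, a platelet chemokine gene (2.48 in cKO and 2.26 in WT), Adh7 (1.78 and 1.36), Ednrb (1.09 and 1.10) and Frat1 (1.25 and 1.19). For Ppbp the gap was also 2.21 in cKO at 0 h and 1.72 in WT at 0 h. The mitochondrial synthetase genes had median gaps of -0.06 in cKO with LPS and 0.02 in WT with LPS. These values are descriptive and carry no test.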
